A study of Mus musculus with 10 samples.

Results

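The genes described here are 10 of the 55414 in the table: the metallothioneins Mt1 and Mt2, the metal-responsive transcription factor Mtf1, the zinc exporters Slc30a1, Slc30a5 and Slc30a7, and the zinc importers Slc39a1, Slc39a8, Slc39a10 and Slc39a14. They were chosen by symbol, because Mt1 and Mt2 had lower values in Camk2d-KO clones and because Slc39a8 differed widely between clones. The KO-to-intact values of Mt1 and Mt2 and all values of Slc39a8 are therefore given as a description, with no test. The 7 other genes were tested between KO and intact cells. All 10 were above the abundance limit used for testing.

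Metallothioneins are small cysteine-rich proteins that bind zinc and copper and buffer the free metal in the cytosol. MTF-1, the product of Mtf1, senses cytosolic zinc and binds metal response elements in the promoters of the metallothionein genes and of Slc30a1, and glucocorticoids and oxidants also induce metallothioneins in many tissues. Zinc transporters form a pair of families, the SLC30 proteins (ZnT), which lower cytosolic zinc by export or by loading organelles, and the SLC39 proteins (ZIP), which raise it. In the kidney, metallothioneins are best known from the proximal tubule, where they bind cadmium and zinc.

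The cells were mpkCCD, an immortalized line with the features of mouse collecting duct principal cells (C57BL/6 background), and Camk2d encodes the delta isoform of calcium/calmodulin-dependent kinase 2. All samples, intact and KO alike, received 0.1 nM of the vasopressin analog dDAVP for 7 days, 4 in complete and 3 in simple medium, and the medium held 50 nM dexamethasone and 60 nM selenite. The intact group had 5 samples from 3 cell lines, the parental line and 2 single-cell clones that passed through the CRISPR-Cas9 transfection without a Camk2d mutation, each clone sampled 2 times. The KO group had 5 samples, each from 1 single-cell clone. KO 1 and KO 2 were made with a guide to exon 8 and KO 3, KO 4 and KO 5 with a guide to exon 9. This assignment comes from supplementary text and not from the sample labels. A KO line is thus 1 clone, and a property of the clone and an effect of the deletion cannot be told apart in any single line. Whether the paired samples of an intact clone were separate cultures is not stated, so p-values measure only the spread between these samples.

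Values are TPM, the share of each gene in all transcripts, which is corrected for transcript length, and they sum to the same total in every sample. They keep no sequencing depth, so the depth is unknown and no counting interval is given. Between 19344 and 20052 genes per sample were above 0. Camk2d was 132 ± 6.97 TPM in intact and 24.7 ± 3.65 TPM in KO samples (SD, n = 5 each), with no overlap. Of the markers of the labelled cell type, Aqp2 (at least 1281 TPM), Fxyd4, Gata3, Avpr2 and Scnn1a (at least 114 TPM) were present in all 10 samples. Scnn1g and Hsd11b2 had at least 11.5 TPM. Aqp3 was low, at 1.1 to 3.34 TPM, and Aqp4 ran from 0.07 to 8.54 TPM. Scnn1b (at most 0.39 TPM) and Kcnj1 (at most 0.19 TPM) were nearly absent. Because the samples are bulk RNA, fewer cells of a type and less RNA per cell cannot be told apart.

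The promoters of the metallothionein pair and of Slc30a1 are shown first, since these 3 genes are textbook targets of MTF-1 and Mt1 and Mt2 are the pair that was lower in KO clones. Each sequence runs 5′ to 3′ on the plus strand of GRCm38.p6 (RefSeq), from 250 bases before to 50 bases after the annotated start. Capitals mark matches on either strand to the core of the metal response element, TGCACNC or TGCGCNC. The windows are chr8:94178839-94179138 for Mt1, chr8:94172368-94172667 for Mt2 and chr1:191906531-191906830 for Slc30a1.
Mt1: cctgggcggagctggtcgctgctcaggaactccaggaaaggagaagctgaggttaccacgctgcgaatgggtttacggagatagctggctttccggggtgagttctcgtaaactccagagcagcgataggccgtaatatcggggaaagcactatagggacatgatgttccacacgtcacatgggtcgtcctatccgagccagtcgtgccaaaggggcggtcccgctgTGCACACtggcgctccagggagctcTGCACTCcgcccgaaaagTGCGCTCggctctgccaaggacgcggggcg
Mt2: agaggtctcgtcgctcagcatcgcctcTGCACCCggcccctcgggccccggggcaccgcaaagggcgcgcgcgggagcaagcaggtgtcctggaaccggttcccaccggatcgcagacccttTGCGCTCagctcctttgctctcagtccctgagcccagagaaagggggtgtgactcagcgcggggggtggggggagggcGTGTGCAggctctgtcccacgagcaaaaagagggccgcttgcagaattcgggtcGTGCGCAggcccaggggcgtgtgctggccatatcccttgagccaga
Slc30a1: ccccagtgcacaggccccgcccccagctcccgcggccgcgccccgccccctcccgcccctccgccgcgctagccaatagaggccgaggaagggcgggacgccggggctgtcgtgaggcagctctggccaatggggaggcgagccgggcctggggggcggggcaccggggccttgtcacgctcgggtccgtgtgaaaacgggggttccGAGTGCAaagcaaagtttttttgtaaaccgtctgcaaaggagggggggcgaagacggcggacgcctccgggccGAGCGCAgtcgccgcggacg

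The Mt1 window held 3 matches, beginning at positions -23, 3 and 21 when the start is counted as 1 and no position is 0. The Mt2 window held 4, at -223, -128, -50 and 5, of which the last 2 lie on the minus strand. The Slc30a1 window held 2, at -43 and 31, both on the minus strand. At least 1 match occurred in 25.7% of the 32851 promoters of the table, at least 2 in 7.11%, at least 3 in 1.97% and at least 4 in 0.517%. Among the other members with a promoter in the table, Slc30a5 had 1 match, 1 of the 2 Slc39a8 promoters had 1, and Mtf1, Slc30a7, Slc39a1 and Slc39a10 had none of these letters in the window. A promoter was found for 9 of the 10 genes, Slc39a14 being the exception. A match describes the sequence and does not show that a factor binds there. Sequence outside these windows was not searched, so matches further from the annotated starts are not counted.

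Mt1 (ENSMUSG00000031765) was among the most abundant transcripts of these cells, ranking 38 of all genes by mean TPM. It stood at 1430.3 TPM in the parental line, at 1846 and 1902 TPM in the samples of intact clone 1 and at 1440.5 and 1487 TPM in those of intact clone 2. From KO 1 to KO 5 the values were 931, 1405, 1095, 951 and 1299 TPM. The groups did not overlap, but KO 2 was close to the parental line. The means were 1621 ± 232 TPM in intact and 1136 ± 210 TPM in KO samples (SD, n = 5 each), a log2(KO/intact) of -0.52 (standard error 0.14) on the log2(TPM + 1) scale. Over all 20000 genes tested, 1.64% had groups without overlap, 0.445% with KO lower and 1.2% with KO higher. Of the 10 members, Mt1 was the only 1 with KO lower and 0 had KO higher. The rule that chose the genes used this difference, so nothing is read from the count.

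Mt2 (ENSMUSG00000031762), the neighbour of Mt1 on chromosome 8, was less abundant and ranked 1637. Its values were 171.5 TPM in the parental line, 209.96 and 197 TPM in intact clone 1 and 157.4 and 156.7 TPM in intact clone 2. In KO 1 to KO 5 they were 116, 162, 109, 58.96 and 105 TPM. In this gene the groups overlapped, because KO 2 lay above both samples of intact clone 2, while KO 4 stood well below the rest. The means were 179 ± 24.1 and 110 ± 36.6 TPM (SD, n = 5 each), a log2(KO/intact) of -0.75 (standard error 0.22). The ratio was -0.55 without KO 4 and -0.91 without KO 2.

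**Figure D1:**
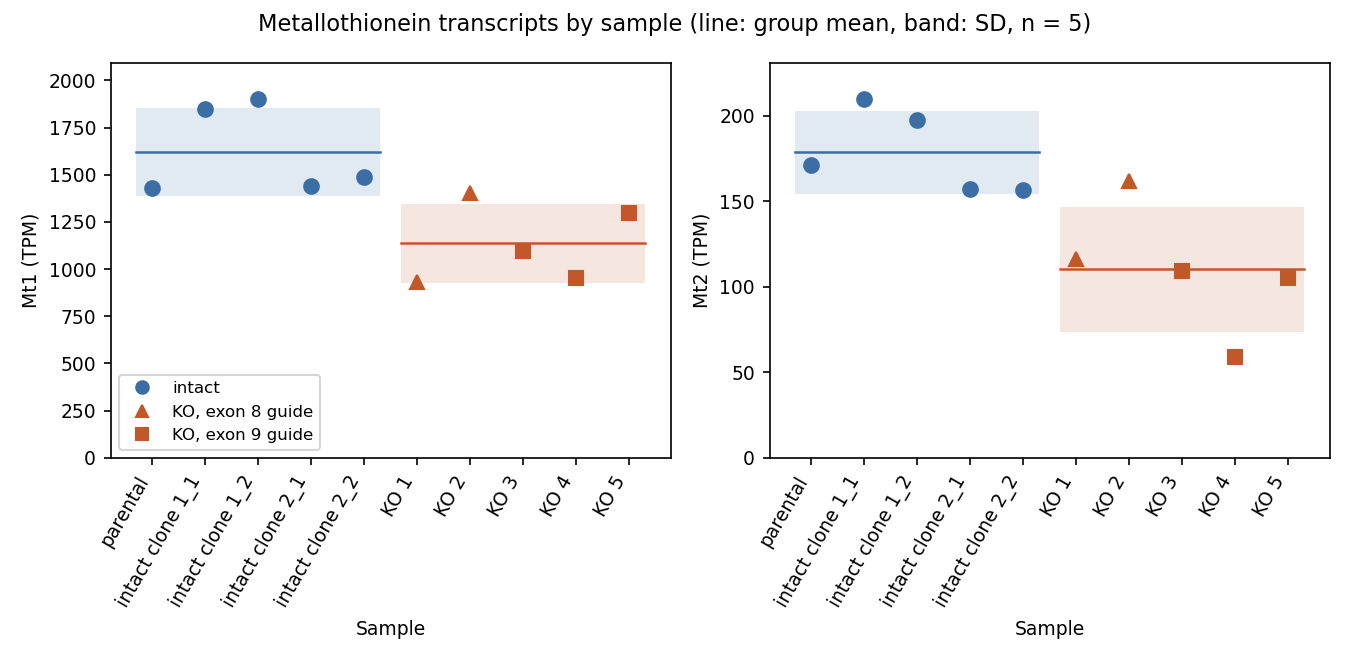
TPM of Mt1 (left) and Mt2 (right) in each of the 10 samples, on linear axes from 0; lines are group means and bands the SD (n = 5), and symbols separate intact samples from KO clones of the exon 8 and the exon 9 guide. All 5 KO clones lie below the intact samples for Mt1 (highest KO clone 1405 TPM, lowest intact sample 1430.3 TPM), and KO 2 overlaps the intact range for Mt2.

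The metallothionein pair together held between 0.160% and 0.210% of all TPM in intact samples, and between 0.101% and 0.157% in KO clones. Their summed level was 1800 ± 255 TPM in intact and 1246 ± 237 TPM in KO samples (SD, n = 5 each). The balance of the pair also varied. In intact samples the ratio of Mt1 to Mt2 kept within 8.34 to 9.63, and KO 1 (8.01), KO 2 (8.68) and KO 3 (10.04) lay near that range. KO 5 (12.3) and KO 4 (16.1) had the highest ratios, since Mt2 was lower in these clones than Mt1 would give. The mean ratio was 9.08 ± 0.526 in intact and 11.0 ± 3.29 in KO samples (SD, n = 5 each), a difference smaller than the spread of the KO clones. The brain metallothionein Mt3 and the epithelial Mt4 were listed at 0 in all 10 samples.

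The order of the 8 cell lines differed between the pair. For Mt1 it ran, from the lowest, KO 1, KO 4, KO 3, KO 5, KO 2, parental line, intact clone 2 and intact clone 1. For Mt2 it ran KO 4, KO 5, KO 3, KO 1, intact clone 2, KO 2, parental line and intact clone 1. Thus intact clone 1 was highest for both genes, and KO 2 was the highest KO clone for both. The clones of the 2 guides were interleaved for Mt1, where KO 1 was the lowest and KO 2 the highest KO clone. For Mt2 the 3 exon 9 clones (58.96 to 109 TPM) all lay below the exon 8 clones (116 and 162 TPM), and no test was made between guides.

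Lines of the same genotype offer a comparison that the choice of genes did not use for Mt1 and Mt2. Intact clone 2 had less Mt1 than intact clone 1, at 1464 against 1874 TPM (means of 2 samples), which is -0.36 on the log2 scale (standard error 0.04). For Mt2 the levels were 157 against 204 TPM, a log2 ratio of -0.37 (standard error 0.04). In both genes each sample of clone 2 was below each sample of clone 1, and the difference between the samples of a clone was at most 0.09 on the log2 scale. With limma and adjustment over 20000 genes the adjusted p was 0.111 for Mt1 and 0.102 for Mt2, and neither passed 0.05. When only genes averaging 1 TPM or more were adjusted over, both passed, with limma adjusted p-values of 0.0486 and 0.0481, as did 247 of those 13047 genes (1.89%, and 0.736% with clone 2 lower). Over the other settings limma's adjusted p reached 0.813 for Mt1 and 0.952 for Mt2, both in the fit of all 10 samples. Apart from that fit, these p-values measure only the spread between the 2 samples of a clone. No gene passed in the first form of this test (0% of 20000), 3386 genes (16.9%) had an unadjusted limma p under 0.05, and 28 genes passed when all 10 samples shared the estimate of the spread. The contrast between intact lines shares its samples with the KO comparison, and the sizes are given side by side only: -0.36 and -0.52 for Mt1, -0.37 and -0.75 for Mt2.

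Slc39a8 (ENSMUSG00000053897) encodes ZIP8, an importer of zinc, manganese, iron and cadmium at the plasma membrane. Its transcript was 1.76 TPM in the parental line, 0.29 and 0.33 TPM in intact clone 1 and 1.8 and 1.69 TPM in intact clone 2. KO 1 had 22.6 TPM and KO 2 had 6.28 TPM, while KO 3, KO 4 and KO 5 had 0.3, 0.23 and 0.44 TPM. Both exon 8 clones were above every other sample, and KO 1 was far above KO 2. The parental line and intact clone 2 came next, and intact clone 1 lay among the exon 9 clones at the low end. KO 1 and KO 2 were also the least alike pair of samples over the genes tested (Pearson's r 0.980, as against 0.984 or more for pairs without KO 2). In KO 2 the principal cell genes Fxyd4 and Avpr2 had their lowest values, 194 and 114 TPM. The part of these differences in the values of Slc39a8, Slc30a7 and Slc39a14 was not tested. The highest sample was 98.3 times the lowest.

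**Figure D2:**
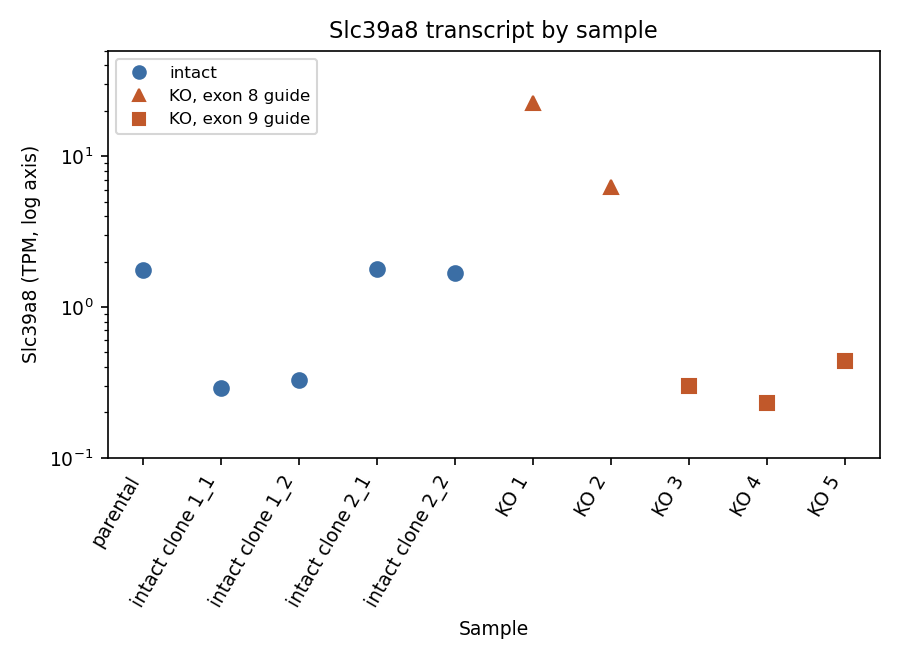
TPM of Slc39a8 in each of the 10 samples on a log axis; circles are intact samples, triangles KO clones of the exon 8 guide and squares KO clones of the exon 9 guide. KO 1 (22.6 TPM) and KO 2 (6.28 TPM) are highest, and the samples of 1 intact clone lie together (0.29 and 0.33 TPM, 1.8 and 1.69 TPM).

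Within a line, the spread of Slc39a8 could be seen only in the intact clones, since the parental line and each KO clone had 1 sample. The paired samples differed by 0.04 in intact clone 1 and by -0.06 in intact clone 2 on the log2 scale, whereas the clones differed by 1.07. This difference depends on the pseudocount, since it was 1.47 with 0.5 and 2.17 with 0.1 in place of 1. Over the 8 lines the SD of log2(TPM + 1) was 1.52, which is the variation for which the gene was chosen. The group means were 1.17 ± 0.790 TPM in intact and 5.97 ± 9.65 TPM in KO samples (SD, n = 5 each), with overlap. The log2(KO/intact) of 0.69 (standard error 0.78) was smaller than its error and rested on KO 1, since it was -0.01 without that clone. As a ratio of mean TPM it was 2.35 on the log2 scale, again carried by KO 1. Mt1 stood at 931 TPM in KO 1, the lowest of the 10 samples, and at 1405 TPM in KO 2, the highest KO clone, so the clones with the most Slc39a8 sat at opposite ends of the KO range of Mt1.

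Slc39a8 lies on chromosome 3 (its annotated starts fall in chr3:135825029-135825706, GRCm38.p6). The 5 other genes within 500 kb that had a mean of at least 1 TPM were Cisd2, Ube2d3, Manba, Oaz2-ps and Nfkb1. Their highest sample was 1.195 to 3.34 times their lowest. KO 1 was the highest sample for 1 of them, Manba, with 66.5 TPM against 43.6 to 59.6 TPM in the other samples. None of these neighbours varied as Slc39a8 did. Around Mt1, 13 genes within 500 kb passed the same limit, Mt2 included. Of the neighbours outside the pair, the log2(KO/intact) ran from -0.22 (Pllp, limma adjusted p = 0.801) to 0.24 (Ogfod1, limma adjusted p = 0.710).

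Mtf1 (ENSMUSG00000028890), which encodes the zinc sensor, had 16.3 TPM in the parental line, 14.5 and 12.5 TPM in intact clone 1 and 13.8 and 17.0 TPM in intact clone 2. KO 1 to KO 5 had 17.1, 14.1, 15.7, 14.0 and 16.6 TPM. The groups overlapped, with KO 1 just above the highest intact sample. Means were 14.8 ± 1.82 and 15.5 ± 1.44 TPM (SD, n = 5 each), with a log2(KO/intact) of 0.06 (standard error 0.09, two-sided exact permutation p = 0.548, adjusted p = 0.903 with limma). The sensor's transcript thus did not differ detectably between the groups, and a link to the Mt1 values was not tested. MTF-1 is regulated at the protein level by zinc binding and nuclear entry, which RNA-seq does not measure.

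Slc30a1 (ENSMUSG00000037434) encodes ZnT1, the plasma membrane zinc exporter. The parental line had 6.77 TPM, intact clone 1 had 5.93 and 4.91 TPM and intact clone 2 had 7.02 and 5.52 TPM. KO 1 to KO 5 had 6.38, 5.14, 4.52, 6.07 and 4.94 TPM, within or just under the intact range. The log2(KO/intact) was -0.13 (standard error 0.12, two-sided exact permutation p = 0.278, adjusted p = 0.820 with limma), from means of 6.03 ± 0.874 and 5.41 ± 0.785 TPM (SD, n = 5 each). KO 4, the clone with the least Mt2, had the second highest Slc30a1 of the KO clones.

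Slc30a5 and Slc30a7 encode ZnT5 and ZnT7, which load zinc into the early secretory pathway, where enzymes such as alkaline phosphatases take it up. Slc30a5 (ENSMUSG00000021629) was 52.4 ± 5.14 TPM in intact and 53.7 ± 4.38 TPM in KO samples (SD, n = 5 each), with 60.5 TPM in the parental line and 60.9 TPM in KO 1 as its highest values. Its log2(KO/intact) was 0.04 (standard error 0.07, two-sided exact permutation p = 0.635, adjusted p = 0.934 with limma), and its sign changed when KO 1 or a sample of intact clone 2 was left out. Slc30a7 (ENSMUSG00000054414) was 38.2 ± 4.19 and 35.1 ± 6.56 TPM (SD, n = 5 each), with -0.13 as log2(KO/intact) (standard error 0.13, two-sided exact permutation p = 0.468, adjusted p = 0.835 with limma). KO 2 was apart for Slc30a7 at 24.0 TPM, with 33.2 to 43.75 TPM in the 9 other samples, and the ratio was -0.0082 without it.

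Slc39a14 (ENSMUSG00000022094) encodes ZIP14, the closest relative of ZIP8 in its choice of metals, and was the most abundant transporter among the members. It had 127 TPM in the parental line, 146 and 157 TPM in intact clone 1 and 149 and 132 TPM in intact clone 2. KO 1 to KO 5 had 139.85, 98.3, 144, 134 and 139.4 TPM. KO 2 was below all other samples, and the other 4 KO clones were inside the intact range. Means were 142 ± 12.5 and 131 ± 18.7 TPM (SD, n = 5 each), with a log2(KO/intact) of -0.13 (standard error 0.10, two-sided exact permutation p = 0.365, adjusted p = 0.820 with limma) that was -0.03 without KO 2. KO 1, which had the most Slc39a8, thus lay in the middle of the Slc39a14 values and KO 2 at their lower end.

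Slc39a10 (ENSMUSG00000025986) encodes ZIP10, a plasma membrane importer. It had 16.3 TPM in the parental line, 13.3 and 14.35 TPM in intact clone 1 and 14.8 and 12.3 TPM in intact clone 2. KO 1 had the lowest value of all samples, 10.75 TPM, and KO 2 and KO 4 the highest, 22.1 and 19.85 TPM, with 13.5 and 16.2 TPM in KO 3 and KO 5. The spread was wider in KO clones, with means of 14.2 ± 1.53 and 16.5 ± 4.601 TPM (SD, n = 5 each), and the log2(KO/intact) was 0.16 (standard error 0.17, two-sided exact permutation p = 0.389, adjusted p = 0.842 with limma). The ratio was 0.30 without KO 1, 0.05 without KO 2 and 0.09 without KO 4. Slc39a1 (ENSMUSG00000052310), for the broadly expressed importer ZIP1, was 6.12 ± 0.622 and 5.87 ± 0.766 TPM (SD, n = 5 each), with -0.05 as log2(KO/intact) (standard error 0.11, two-sided exact permutation p = 0.579, adjusted p = 0.930 with limma) whose sign changed without KO 2. Slc39a1 shares sequence with the pseudogene Slc39a1-ps, and 78.2% of its 50-base windows were its own. Its division of reads is therefore uncertain. For the other members 98.7% to 100% of windows were their own.

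Over all 10 members, 6 had a log2(KO/intact) under 0, as against 42.7% of all genes, and Mt1 and Mt2, which chose the set, are among the 6. Of the 7 members tested between KO and intact cells, 0 passed limma at an adjusted p of 0.05, as against 0.005% of all genes, which is Camk2d alone. None of the 7 had an unadjusted limma p under 0.05 either, as against 6.99% of all genes. Their log2 ratios ran from -0.13 to 0.16 with a median of -0.05, and the median over all 20000 genes was 0.02. The smallest exact permutation p was 0.278, and 5 against 5 samples can reach 0.00794. Both, like the limma fit, treat the paired samples of an intact clone as independent. In the comparison of the intact clones, the limma adjusted p of the same 7 genes ran from 0.332 to 0.944. A p above the threshold does not show that levels were equal.

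**Figure D3:**
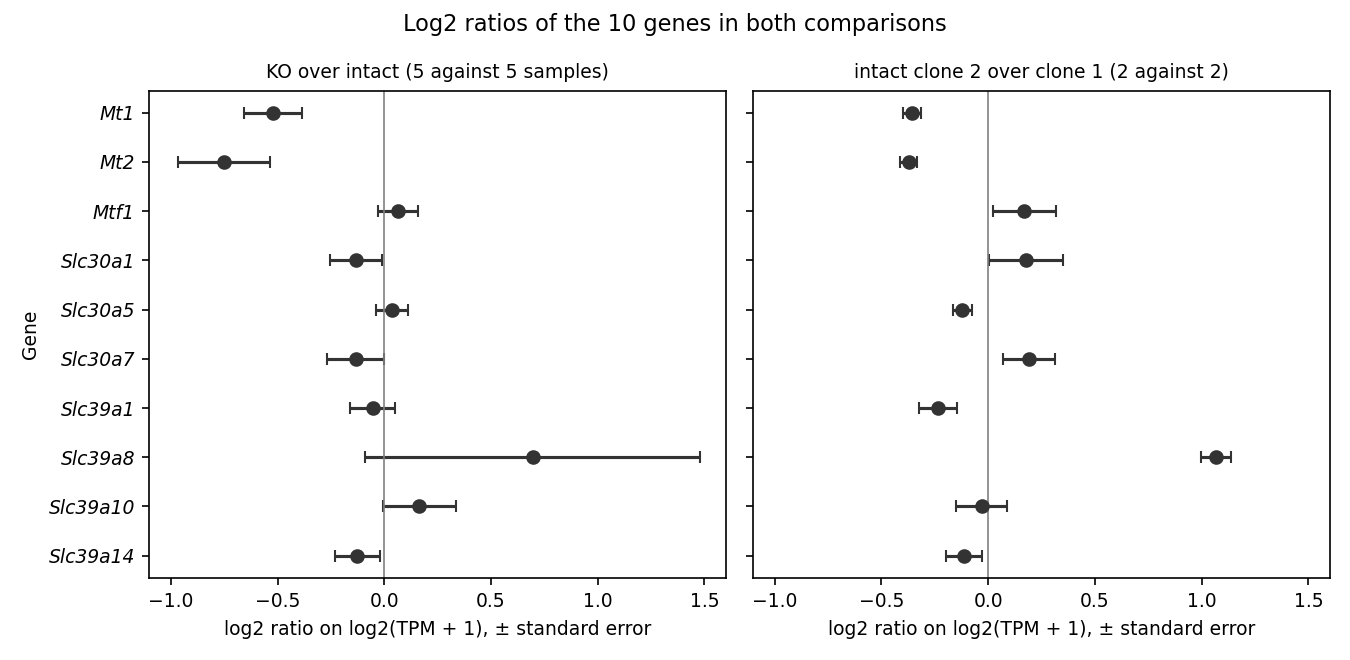
Log2 ratio on the log2(TPM + 1) scale, with its standard error, of the 10 genes for KO over intact samples (left, 5 against 5) and for intact clone 2 over intact clone 1 (right, 2 against 2). Mt1 (-0.52 and -0.36) and Mt2 (-0.75 and -0.37) lie below 0 in both panels, and Slc39a8 (0.69 and 1.07) has the widest error on the left.

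The members were also placed among the other zinc genes. The list held 20 more, of which 10 transporters had a mean of at least 1 TPM. Ordered by mean TPM, Slc39a7 (176 TPM) led and was followed by Slc39a14 (137), Slc30a9 (77.3), Slc39a9 (73.0), Slc30a5 (53.1), Slc30a6 (51.1), Slc39a13 (47.6), Slc39a3 (44.5), Slc30a7 (36.6), Slc39a11 (28.6), Slc39a6 (26.6), Slc30a4 (18.0), Slc39a10 (15.3), Slc39a1 (5.99), Slc30a1 (5.72), Slc39a4 (5.62) and Slc39a8 (3.57). Most neighbours in this order had overlapping ranges over the 10 samples. The ranges of Slc39a7, Slc39a9, Slc39a6 and Slc39a10 did not reach those of the next gene down. Slc39a7 encodes ZIP7, which releases zinc from the endoplasmic reticulum. Slc39a8 stood at the end of the order by its mean, but in KO 1 its 22.6 TPM exceeded the 10.75 TPM of Slc39a10.

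**Figure D4:**
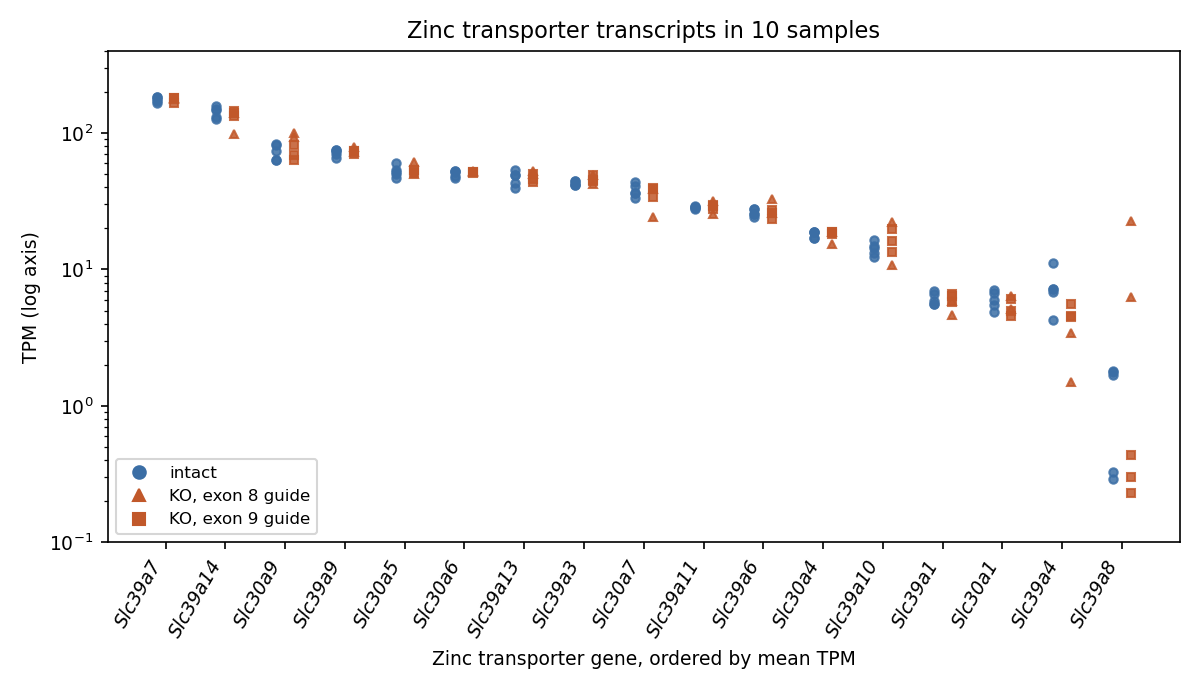
TPM (log axis) of the 17 zinc transporter genes with a mean of at least 1 TPM in each of the 10 samples, ordered by mean; circles are intact samples, triangles exon 8 and squares exon 9 KO clones. Most genes span a narrow range around a mean between 176 TPM (Slc39a7) and 5.62 TPM (Slc39a4), while Slc39a8 runs from 0.23 to 22.6 TPM.

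Summed over a family, the levels hardly moved. The SLC30 genes added up to 238 ± 14.0 TPM in intact and 245 ± 16.4 TPM in KO samples (SD, n = 5 each). The SLC39 genes added up to 564 ± 11.3 and 564 ± 24.5 TPM (SD, n = 5 each). Of the 10 other transporters above 1 TPM, 0 had a limma adjusted p under 0.05 (range 0.642 to 0.999), and their log2(KO/intact) ran from -0.78 to 0.15 with a median of 0.04.

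The lowest of these ratios belonged to Slc39a4, the ZIP4 importer of the apical membrane, which is singled out here after its values were seen. It had 4.23 TPM in the parental line, 7.17 TPM in both samples of intact clone 1 and 6.81 and 11.2 TPM in intact clone 2. KO 1 to KO 5 had 1.49, 3.45, 4.58, 4.5 and 5.6 TPM. The parental line lay among the KO clones, and the other intact samples lay above all of them. Means were 7.31 ± 2.48 and 3.92 ± 1.56 TPM (SD, n = 5 each). On the log2(TPM + 1) scale the KO mean minus the intact mean was -0.78 with a standard error of 0.28 (limma adjusted p = 0.642). It was the only 1 of these 10 with an unadjusted limma p under 0.05, a share near the 6.99% of all genes in either direction (2.46% lower). Slc30a9 (ZnT9, a mitochondrial transporter) was highest in the same KO clones as Slc39a8, with 93.9 TPM in KO 1 and 99.2 TPM in KO 2 and 63.0 to 82.5 TPM in the 8 other samples, and had a log2(KO/intact) of 0.15 (limma adjusted p = 0.820).

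Genes tied to the inducers of metallothioneins or that handle other metals were compared in the same fit. Of 16 tested genes for copper, iron and manganese handling, 3 had an unadjusted limma p under 0.05, all lower in KO. The background was 6.99% in either direction and 2.46% lower, and the list's median log2(KO/intact) was -0.04. Of the 3, Cox17, a copper chaperone of cytochrome oxidase, was at 431 ± 28.9 and 351 ± 39.9 TPM (SD, n = 5 each, limma adjusted p = 0.524). The copper proteins Atox1 and Commd1 had log2 ratios of -0.19 and -0.12 (limma adjusted p of 0.675 and 0.705). For intact clone 2 over intact clone 1 the log2 ratios were -0.02 (Cox17), -0.27 (Atox1) and -0.03 (Commd1). The ferritin genes Fth1 and Ftl1, at 2312 TPM or more in all samples, had log2 ratios of 0.02 and -0.09. Of 12 genes of the glucocorticoid response (9 induced genes, the receptors Nr3c1 and Nr3c2, and the enzyme Hsd11b2), 0 had an unadjusted limma p under 0.05 (background 6.99% in either direction), and the log2(KO/intact) ran from -0.46 to 0.79 with a median of 0.08. Tsc22d3, an induced gene and the most abundant of them, was 1137 ± 38.0 and 1069 ± 156 TPM (SD, n = 5 each). Sgk1, a kinase that raises sodium transport, gave the lowest ratio. It was between 314 and 558 TPM in intact samples, at 943 TPM in KO 1 and between 149 and 306 TPM in the 4 other KO clones, so that the groups overlapped through KO 1 alone. Hsd11b2, which inactivates glucocorticoids, gave the highest ratio, with 17.8 to 24.5 TPM in intact samples and 11.5 to 115 TPM in KO clones. The median log2(KO/intact) of 14 NRF2 and oxidative stress genes was -0.02. Of these, 1 had an unadjusted limma p under 0.05, a share near the 6.99% of all genes in either direction (2.46% lower). This was Gclm, a subunit of the enzyme that limits glutathione synthesis, at 123 ± 10.7 and 102 ± 15.5 TPM (SD, n = 5 each, limma adjusted p = 0.651). No gene of these lists had a limma adjusted p under 0.05.

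Among cell type markers, the water channel gene Aqp2 was also lower in KO samples on average. It was 4318 ± 696 TPM in intact and 2485 ± 1024 TPM in KO samples (SD, n = 5 each), and its log2(KO/intact) was -0.89 (adjusted p = 0.565 with limma). The lowest values were 1281 TPM in KO 1 and 1618 TPM in KO 2, the clones with the most Slc39a8, while KO 3, KO 4 and KO 5 had 3789, 2879.7 and 2856 TPM, and KO 3 overlapped the lowest intact sample (3773 TPM). Aqp4 had the lowest ratio of the list, -1.17 (limma adjusted p = 0.759). It was 7.0 and 8.54 TPM in intact clone 1, 3.31 TPM in the parental line and 0.10 and 0.18 TPM in intact clone 2. KO clones had 0.07 to 1.77 TPM. The log2 ratio of intact clone 2 to intact clone 1 was -2.94. Aqp2 was the only 1 of 11 principal cell markers with an unadjusted limma p under 0.05. This share is near the 6.99% of all genes in either direction (2.46% lower). The list's median was -0.11, and its summed level was 5082 to 7066 TPM in intact and 2462 to 5305 TPM in KO samples. The 8 intercalated cell markers summed to 26.9 to 34.1 TPM in intact and 26.75 to 56.4 TPM in KO samples, nearly all from Atp6v1b1 and Aqp6, and the defining Foxi1, Slc4a1 and Kit were at or under 0.04 TPM. The 5 proximal tubule markers summed to 7.54 to 13.0 and 6.53 to 15.05 TPM, nearly all from Lrp2, with Slc34a1 listed at 0. The 5 fibroblast and immune markers summed to 4.22 to 6.12 and 3.92 to 9.52 TPM, nearly all from Cd68, with Col3a1 listed at 0. The part of these differences in the metallothionein values was not tested.

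The genes whose pattern over the 8 cell lines was most like that of a member were found by Pearson's r of log2(TPM + 1). Only genes with a mean of at least 5 TPM over the lines were compared, 10460 for Slc39a8 and 10459 each for Mt1 and Mt2. The lines share their origin and 1 sequencing design, and among so many genes high values of r arise readily with 8 points. For Slc39a8 they were Gde1 (0.971), Pon3 (0.965), Pgm1 (0.963), Ginm1 (0.962) and Arl8a (0.961), and the most opposite were Frg1 (-0.989), Mgat2 (-0.981) and Rps26-ps1 (-0.977). Pon3 had 29.3 TPM in KO 1, 20.5 TPM in KO 2 and 12.8 to 16.6 TPM in the other lines, a far smaller range than that of Slc39a8. Frg1 had 119.7 TPM in KO 1, 139.5 TPM in KO 2 and 154 to 169 TPM elsewhere. For Mt1 the most alike were Stx8 (0.964), Gsta3 (0.953), Ocel1 (0.941), Card19 (0.939) and Hook1 (0.932), and the most opposite Os9 (-0.979), Inava (-0.965) and Klf5 (-0.963). Gsta3, a glutathione transferase, had 61.5 TPM in intact clone 1 and 39.8 to 55.6 TPM in the other lines. For Mt2 they were Paxbp1 (0.973), Psmd8 (0.969), Tmsb15l (0.945), Morc3 (0.944) and Stx8 (0.930), and the most opposite Tsku (-0.985), Gpatch2 (-0.965) and Pak2 (-0.961). Tsku had 20.3 TPM in KO 4, where Mt2 was lowest, and 8.265 TPM in intact clone 1, where Mt2 was highest. Stx8, a SNARE protein, was on the lists of both metallothioneins.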

How the data were processed

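RNA-seq was run by the authors on 10 samples of mpkCCD cells. They aligned 50-bp read pairs with STAR and quantified genes with RSEM, and the deposited values are TPM per Ensembl gene, with 1 column per sample (0 columns were left unused). The authors' own comparison used edgeR on expected counts, which were not used here. TPM keep no depth. Samples were grouped from their labels.

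The 20000 genes with the highest mean TPM (at least 0.049) were compared as log2(TPM + 1), pseudocount 1, with limma 3.58.1 in R 4.3.3 (eBayes, intensity trend). P-values were adjusted over all of them (Benjamini-Hochberg, threshold 0.05). Log2 ratios on this scale understate changes of low genes. Two-sided exact permutation tests used all 252 arrangements. KO was compared with intact (5 against 5) and intact clone 2 with intact clone 1 (2 against 2). No test was made between guides, which the labels do not give. On simulated data with 200 of 20000 genes changed by a log2 ratio of 1, the procedure recovered 84.5% for KO against intact and 31.0% for the intact clones. At a ratio of 2 it recovered 97.5% and 76.0%. The simulated samples were independent, unlike the paired samples of an intact clone, and the changed genes averaged at least 1 TPM. Recovery in the real data may therefore be lower.

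The members and the gene lists were chosen with earlier results of these data known. Named genes are the members, other zinc transporters above 1 TPM, the up to 5 most abundant genes of each other list (copper, iron and manganese handling, glucocorticoid response, NRF2 and oxidative stress, and the cell type markers), the 5 most alike and 3 most opposite genes, genes within 500 kb and Camk2d. Genes singled out beyond these for an unadjusted p under 0.05, a marker at or near 0, or their values were chosen after the values were seen. Likeness was computed over 8 lines, the samples of an intact clone averaged. Promoters came from the RefSeq table (GRCm38.p6), window sharing from GENCODE M21 transcripts, and neighbours from the RefSeq gene table. Those builds may differ from the authors', and no coordinate came from their files. Other steps used Python 3.11.15, pandas 2.3.3, numpy 2.4.6, scipy 1.17.1 and matplotlib 3.10.9.

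Alternatives changed 1 choice at a time: pseudocount (0.1, 0.5), genes tested, rescaling by median ratios, quantile normalization, limma without trend, robust moderation, averaging each line to 1 value, line identity as a random effect (statmod 1.5.0, consensus correlation 0.605), the ratio of mean TPM, and each sample left out.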

Additional observations from a re-analysis of the deposited data

Results flagged for a closer look

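In KO samples, Slc39a14 was at 98.3 TPM in KO 2, with a gap to the next clone of 0.773 of the group's whole range. This exceeds 0.710, the 95% limit of Dixon's test for 5 values. Among 24 groups examined, chance alone places about 1 in 20 past this limit. Slc39a8 was at 22.6 TPM in KO 1, with a gap of 0.730 of the range. It was chosen for its variation between clones, so this gap is a description and no test.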

How the results depend on the processing

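The log2(KO/intact) was between -0.55 and -0.45 for Mt1 and between -0.78 and -0.70 for Mt2 over 11 alternative settings. With 1 sample left out it ran from -0.60 to -0.45 and from -0.91 to -0.55. In the same way it ran from 0.0084 to 0.111 for Mtf1 and from -0.193 to -0.081 for Slc30a1. For Slc30a9 it ran from 0.0717 to 0.229. For Slc39a8 it was 2.35 as a ratio of mean TPM, and with 1 sample left out it ran from -0.0145 (without KO 1) to 1.05. The sign changed for Slc30a5 without KO 1 (-0.0090) or the first sample of intact clone 2 (-0.0019), over a range of -0.0090 to 0.0886. It changed for Slc39a1 without KO 2 (0.0141, range -0.0928 to 0.0141), and for Slc39a10 between the intact clones without the second sample of clone 1 (0.0223) or of clone 2 (0.0921), over a range of -0.154 to 0.0921. None of the 7 tested members passed limma's adjusted p of 0.05 in these fits.

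Between KO and intact samples, 2 genes passed limma with a pseudocount of 0.1 (Camk2d and Gm8444), and 1 to 2 with 1 sample left out, 2 without the parental line or without KO 2. The number with an unadjusted p under 0.05 was 762 when each line was averaged to 1 value and 747 when line identity was a random effect. Between the intact clones, 247 of 13047 genes averaging 1 TPM or more passed, with Mt1 at -0.36 and Mt2 at -0.37 among them, 28 passed in a fit of all 10 samples (1314 unadjusted), and 0 to 0 with 1 sample left out, where the lone sample of a clone is assumed to vary like the other clone. The causes were not tested. Of the 5 genes most like Slc39a8, 0 were shared under Spearman's correlation and 3 over 10 samples. For Mt2, 2 and 3 were shared, and for Mt1, 4 and 4. No paired analysis was possible because the labels tie no KO sample to an intact sample. Depth is unknown, which limits what can be said of values near 0, and 8 cell lines limit every comparison.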
